A study of Homo sapiens with 2 samples.

Results

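The CCR4-NOT complex genes are the 10 subunit genes CNOT1, CNOT2, CNOT3, CNOT4, CNOT6, CNOT6L, CNOT7, CNOT8, CNOT10 and CNOT11, taken by gene name and not by any measured value. The choice was made with earlier results of these data known. Of the 10 genes, 9 were listed in both gene tables, among 9159 genes listed for ZC3H7B and 8204 listed for ZC3H7A. CNOT3 was listed in neither table and was not analysed here. The tables give no count for a gene they do not list, and an unlisted gene is not shown to be unbound. The RNA-binding proteins ZC3H7B and ZC3H7A, each with a Flag/HA tag, were induced in HEK293 cells, an embryonic kidney line, with 1 µg/mL doxycycline for 24 h, and RNA was labelled with 100 µM 4-thiouridine for 16 h in both groups. PAR-CLIP, which crosslinks a protein to RNA that carries a photoactivatable nucleoside and sequences the bound fragments, then recorded where each protein touched RNA, with light of 365 nm. Each protein had 1 library, and none served as a control, so values are set side by side without a test and no value has a replicate check. Both proteins were overexpressed from an induced construct. The growth protocol describes HEK293 cells and their Flp-In T-REx derivative, made for inducible expression, without saying which gave the libraries. The title of the series asks about codon-dependent control of translation and stability.

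CCR4-NOT is the main enzyme complex that shortens poly(A) tails of messenger RNAs in the cytoplasm, a step that leads to translational repression and decay. CNOT1 is the scaffold on which the other subunits assemble. CNOT6 and CNOT6L are alternative deadenylases of the CCR4 type, CNOT7 and CNOT8 alternative deadenylases of the CAF1 type, CNOT2 and CNOT3 form the NOT module, and CNOT10 and CNOT11 bind the amino-terminal part of CNOT1. CNOT4 is a RING-type ubiquitin ligase, which in human cells is not a stable part of the complex. The measurements concern the messenger RNAs of these proteins as targets of ZC3H7B and ZC3H7A, not the proteins.

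The members together held 5534 reads in 250 clusters in the ZC3H7B library and 5399 reads in 107 clusters in the ZC3H7A library. A cluster is a group of overlapping reads, and reads are summed over the clusters called on a gene. These reads were 0.230% and 0.143% of the 2409465 and 3779662 reads on genes in the ZC3H7B and ZC3H7A libraries. Distinct reads numbered 2992 in the ZC3H7B library and 493 in the ZC3H7A library, so each distinct read of these genes was counted 1.85 and 10.95 times. All genes stood at 1.99 and 12.6, and reads that are PCR copies are not independent molecules. Exact 95% intervals below therefore cover counting error only, and for reads even that error is understated. In rank by reads the members ran from 148 to 3993 of 9159 in the ZC3H7B library and from 425 to 6326 of 8204 in the ZC3H7A library. Transcript lengths and expression were not analysed here, so this order is one of counts and not of binding per length or per molecule. As a check of the labels, ZC3H7B had 3768 reads in the library of its own protein, against 1362 in the other, and ZC3H7A had 158 reads in the ZC3H7B library, against 82704 in its own. The HEK293 markers LIN28B and NEFL were listed in both tables, NEFM and PAX2 in neither, and 0 of 5 liver and blood markers in either.

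CNOT1, the scaffold, had 2021 reads (1934 to 2111) in 70 clusters in the ZC3H7B library, against 1756 reads (1675 to 1840) in 30 clusters in the ZC3H7A library. In distinct reads it had 1085 in the ZC3H7B library, against 162 in the ZC3H7A library. The libraries thus stood closer together in reads than in distinct reads or clusters. Its clusters lay mainly in coding sequence, with 53 of 70 (75.7%, 64.0 to 85.2%) in the ZC3H7B library, against 28 of 30 (93.3%, 77.9 to 99.2%) in the ZC3H7A library. The 3' UTR held 6 of 70 clusters in the ZC3H7B library and 0 of 30 in the ZC3H7A library, which allows a share of up to 10.0% there by a limit of 3 counts and up to 11.6% by the exact interval. Introns held 3 of 70 and 0 of 30. Among genes with at least 5 clusters, 7.45% in the ZC3H7B library and 4.92% in the ZC3H7A library had a coding share as high as that of CNOT1.

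For the CCR4-type deadenylase genes, most clusters in the ZC3H7B library lay in the 3' UTR. CNOT6 had 1112 reads (1048 to 1179) in 51 clusters in the ZC3H7B library, against 1162 reads (1096 to 1231) in 28 clusters in the ZC3H7A library. Its coding share was 12 of 51 clusters (23.5%, 12.8 to 37.5%) in the ZC3H7B library, against 14 of 28 (50.0%, 30.6 to 69.4%) in the ZC3H7A library. Its 3' UTR share was 31 of 51 (60.8%, 46.1 to 74.2%), against 9 of 28 (32.1%, 15.9 to 52.4%). The intervals of both shares overlap between the libraries. CNOT6L had 200 reads (173 to 230) in 15 clusters in the ZC3H7B library, against 233 reads (204 to 265) in 4 clusters in the ZC3H7A library. The 3' UTR held 14 of the 15 clusters of CNOT6L in the ZC3H7B library and 4 of the 4 in the ZC3H7A library. Neither library placed a CNOT6L cluster in an intron, while CNOT6 had 7 intronic clusters in the ZC3H7B library and 4 in the ZC3H7A library. A CNOT6L pseudogene, CNOT6LP1, was listed separately with 7 reads in the ZC3H7B library and 16 in the ZC3H7A library, so reads between these copies are uncertain.

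Of the CAF1-type deadenylase genes, CNOT8 had most of its clusters in the 3' UTR in both libraries, and CNOT7 spread over 3' UTR, introns and coding sequence. CNOT7 had 588 reads (541 to 638) in 30 clusters in the ZC3H7B library, against 782 reads (728 to 839) in 11 clusters in the ZC3H7A library. Of these, 14 of 30 lay in the 3' UTR, 10 in introns and 4 in coding sequence in the ZC3H7B library, against 4, 2 and 5 of 11 in the ZC3H7A library. CNOT8, by contrast, had no intronic cluster in either library. CNOT8 had 799 reads (745 to 856) in 21 clusters in the ZC3H7B library, against 681 reads (631 to 734) in 15 clusters in the ZC3H7A library. Of these, 14 of 21 (66.7%, 43.0 to 85.4%) lay in the 3' UTR in the ZC3H7B library, against 9 of 15 (60.0%, 32.3 to 83.7%) in the ZC3H7A library. CNOT8 had 2 clusters at its start codon in the ZC3H7B library and 1 in the ZC3H7A library, and no other member had one. RefSeq lists the pseudogenes CNOT7P1, CNOT7P2 and CNOT4P1, and none of them was listed in the tables. How reads shared with them were counted is not stated.

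The remaining core subunits had few clusters. CNOT2, of the NOT module, had 111 reads (91.3 to 134) in 5 clusters in the ZC3H7B library, against 168 reads (144 to 195) in 5 clusters in the ZC3H7A library. The 3' UTR held 4 of these in the ZC3H7B library and 2 in the ZC3H7A library, and coding sequence 1 and 2. CNOT10 had 132 reads (110 to 157) in 5 clusters in the ZC3H7B library, against 42 reads (30.3 to 56.8) in 1 cluster in the ZC3H7A library. CNOT10 had no cluster in the 3' UTR in either library, with 4 of 5 in coding sequence in the ZC3H7B library and the 1 cluster in coding sequence in the ZC3H7A library. CNOT11 had 117 reads (96.8 to 140) in both libraries, in 10 clusters in the ZC3H7B library, against 4 in the ZC3H7A library. Of these, 5 of 10 were coding in the ZC3H7B library and 3 of 4 in the ZC3H7A library, and the 3' UTR 4 of 10 and 0 of 4. With so few clusters, region shares of these genes have intervals that span most of the scale.

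CNOT4, the ubiquitin ligase, had more clusters in introns than in any other region in the ZC3H7B library. It had 454 reads (413 to 498) in 43 clusters in the ZC3H7B library, against 458 reads (417 to 502) in 9 clusters in the ZC3H7A library. Introns held 23 of 43 clusters (53.5%, 37.7 to 68.8%) in the ZC3H7B library, against 3 of 9 (33.3%, 7.49 to 70.1%) in the ZC3H7A library. The 3' UTR held 14 of 43 in the ZC3H7B library and 1 of 9 in the ZC3H7A library, and coding sequence 3 and 3. Of the genes with at least 5 clusters, 2.64% had an intronic share as high as that of CNOT4 in the ZC3H7B library and 5.99% in the ZC3H7A library. For CNOT7, with 33.3% and 18.2% of clusters in introns, these values were 5.81% and 11.3%.

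**Figure D1:**
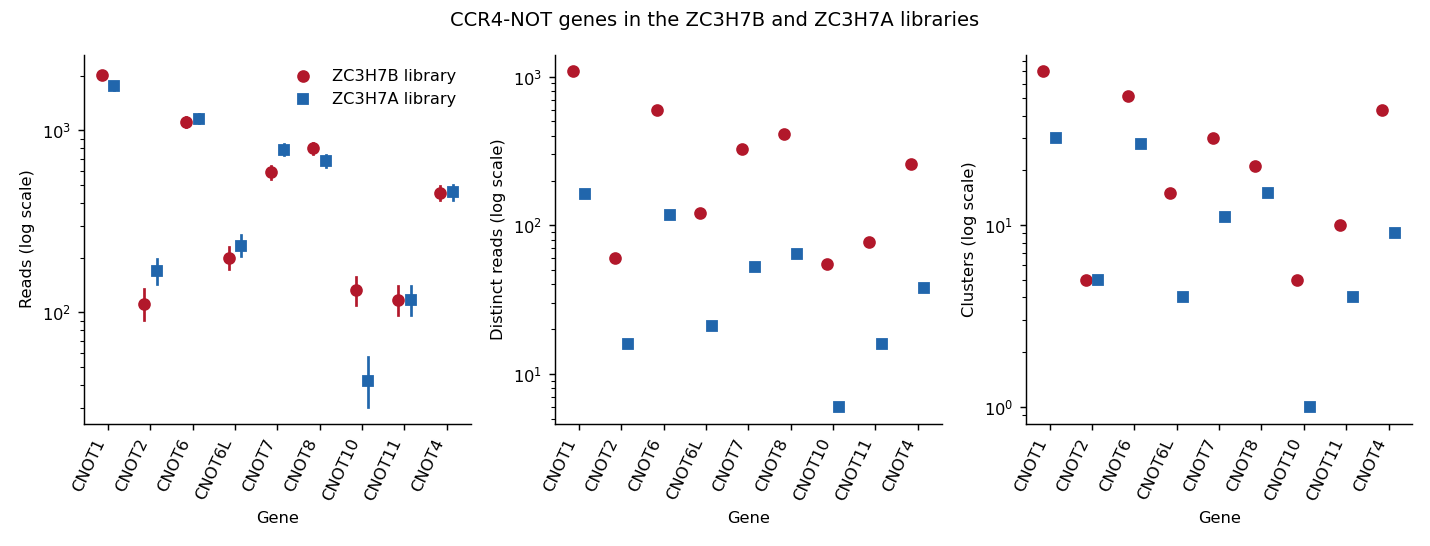
Reads, distinct reads and clusters (log axes) of the 9 listed genes in the ZC3H7B library (red circles) and the ZC3H7A library (blue squares), 1 library each, with exact 95% intervals for counting error on reads. Reads ran from 111 for CNOT2 to 2021 for CNOT1 in the ZC3H7B library and from 42 for CNOT10 to 1756 for CNOT1 in the ZC3H7A library, while distinct reads were more numerous in the ZC3H7B library for all 9.

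Pooled over the members, clusters in the ZC3H7B library lay less in coding sequence and more in 3' UTRs and introns than those in the ZC3H7A library. In the ZC3H7B library 88 of 250 clusters were coding (35.2%, 29.3 to 41.5%), against 59 of 107 (55.1%, 45.2 to 64.8%) in the ZC3H7A library. The same shares over all genes were 29.6% and 42.7%. CNOT1 alone held 53 of the 88 and 28 of the 59, and without it the coding shares were 19.4% (13.9 to 26.0%) and 40.3% (29.2 to 52.1%). In the ZC3H7B library that interval lay below the share of all genes, and in the ZC3H7A library it held that share. Gene by gene, the coding share was lower in the ZC3H7B library for 7 of 9 members and higher for CNOT6L and CNOT8. Among the 7168 genes compared below it was lower for 55.6%, higher for 23.0% and equal for 1531 genes, while no member was equal. Taken as ZC3H7B minus ZC3H7A, the median difference among the members was -20.0 percentage points, and -5.73 among all genes compared. The members' median is the value of CNOT2, with 1 of 5 against 2 of 5 coding clusters, and of CNOT10, with 4 of 5 against 1 of 1. It thus rests on genes with few clusters.

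The 3' UTR held 101 of 250 member clusters (40.4%, 34.3 to 46.8%) in the ZC3H7B library, against 29 of 107 (27.1%, 19.0 to 36.6%) in the ZC3H7A library, and all genes stood at 55.8% and 39.8%. Of the 9 members, 7 had a higher 3' UTR share in the ZC3H7B library, CNOT6L a lower one, and CNOT10 had 0 in both. Among the 7168 genes compared it was higher for 57.8%, lower for 17.5% and equal for 1774 genes. As ZC3H7B minus ZC3H7A, these shares differed by a median of 10.3 percentage points among the members and 7.58 among all genes compared. Counted as clusters, the members had 3.48-fold as many in 3' UTRs in the ZC3H7B library as in the ZC3H7A library (2.29 to 5.46), and 1.49-fold as many in coding sequence (1.06 to 2.11). All genes had 2.70-fold and 1.33-fold as many. For these regions the intervals of the members held the values of all genes.

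Intronic clusters were a larger share of the members' clusters than of those on all genes in the ZC3H7B library. Introns held 45 of 250 clusters (18.0%, 13.4 to 23.3%) in the ZC3H7B library, against 9 of 107 (8.41%, 3.92 to 15.4%) in the ZC3H7A library, where all genes stood at 6.13% and 6.18%. Of the 45, CNOT4 held 23, CNOT7 held 10, CNOT6 held 7, CNOT1 held 3, and CNOT10 and CNOT11 held 1 each. Of the 9 in the ZC3H7A library, CNOT6 held 4, CNOT4 held 3 and CNOT7 held 2. Without CNOT4 the shares were 10.6% (6.78 to 15.6%) in the ZC3H7B library and 6.12% (2.28 to 12.9%) in the ZC3H7A library. In the ZC3H7B library that interval still lay above the share of all genes, and in the ZC3H7A library it held that share. Without CNOT1 and CNOT4 the shares were 13.9% (8.56 to 20.8%) in the ZC3H7B library and 8.82% (3.31 to 18.2%) in the ZC3H7A library. Counted as clusters, the members had 5-fold as many in introns in the ZC3H7B library as in the ZC3H7A library (2.41 to 11.6), an interval above the 1.91-fold of all genes, and without CNOT4 3.67-fold (1.44 to 11.1), which holds it. Clusters of 1 gene share its transcript and are not independent, so these intervals are too narrow for a statement on genes. The 5' UTR held 1 member cluster, on CNOT4, in the ZC3H7B library, and 4 in the ZC3H7A library, 2 on CNOT4 and 1 each on CNOT1 and CNOT2.

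**Figure D2:**
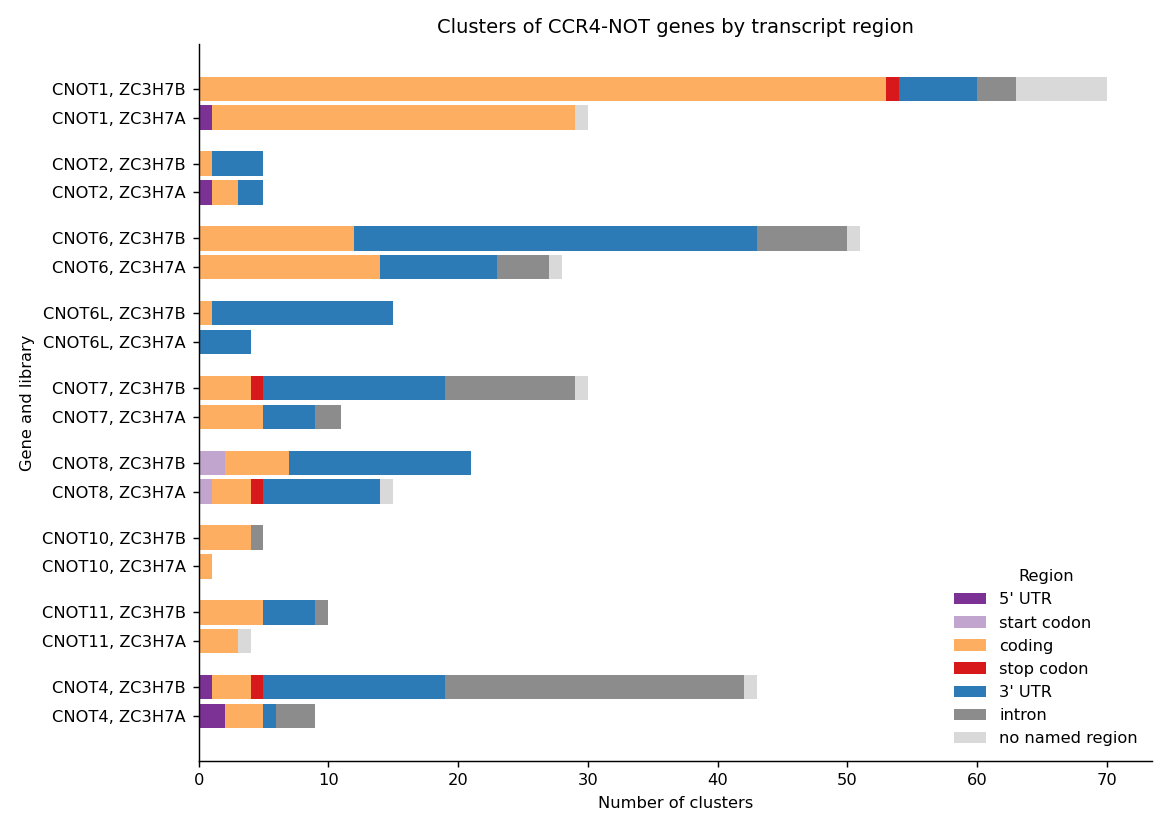
Number of clusters of each listed CCR4-NOT gene by transcript region (colours), with the ZC3H7B library above the ZC3H7A library for each gene, 1 library each. CNOT1 clusters lie mostly in coding sequence, with 53 of 70 and 28 of 30 clusters, CNOT6L in the 3' UTR, with 14 of 15 and 4 of 4, and CNOT4 has 23 of 43 and 3 of 9 in introns.

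Ratios between the libraries were formed for genes present in both tables with 20 or more reads in all. For each measure the ratios were shifted by a constant of its own, which puts the median of these 7168 genes at 0. A value is thus relative to the median gene, and its sign can differ from that of the raw difference. A gene counted as higher in a library where its whole exact 95% interval lay beyond 2-fold. CNOT10 alone of the 9 members was counted as higher in the ZC3H7B library, where 18.2% of all genes compared were, and none as higher in the ZC3H7A library, where 18.0% were. One member of 9 is 11.1%, below the share of all genes in that direction. The members' ratios had a median log2 value of 0.48 and ran from -0.11 for CNOT2 to 2.14 for CNOT10, whereas the lower and upper quartiles of all genes were -1.05 and 1.03. The other 8 members thus lay between those quartiles. Intervals lay wholly above 0 for 6 members, as for 40.7% of all genes, wholly below 0 for none, as for 39.9%, and across 0 for CNOT2, CNOT6L and CNOT7. By distinct reads no member had its whole interval beyond 2-fold in either direction, where 7.28% of all genes were higher in the ZC3H7B library and 10.1% in the ZC3H7A library. By clusters none had either, and 0.321% and 0.223% of all genes had, with CNOT10 at 1.40 (-1.76 to 6.96) by that measure.

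CNOT10 had a log2 ratio of 2.14 (1.63 to 2.68), and 91.4% of all genes compared lay below it. That value rests on 1 cluster of 42 reads, made of 6 distinct reads, in the ZC3H7A library. In distinct reads, with 55 in the ZC3H7B library against 6, its log2 ratio was 1.14 (-0.07 to 2.65). By mean reads per cluster, 26.4 in the ZC3H7B library against 42.0, it was 0.80 (0.29 to 1.33), and neither measure kept the interval beyond 2-fold. Of the other subunits that bind CNOT1, CNOT11 stood at 0.49 (0.11 to 0.87) and CNOT2 at -0.11 (-0.46 to 0.25).

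CNOT1 and CNOT8 had the next highest log2 ratios, 0.70 (0.60 to 0.79) and 0.72 (0.57 to 0.87), or 1.62-fold and 1.65-fold. CNOT4 stood at 0.48 (0.29 to 0.67), CNOT6 at 0.43 (0.31 to 0.55), CNOT6L at 0.27 (-0.01 to 0.55) and CNOT7 at 0.08 (-0.08 to 0.24). By mean reads per cluster, with the number of clusters taken as fixed, CNOT8 stood at 1.21 (1.06 to 1.36), an interval beyond 2-fold. So did 6.18% of all genes by that measure, and no member was higher in the ZC3H7A library, where 4.65% were. The means of CNOT8 were 38.0 reads in the ZC3H7B library and 45.4 in the ZC3H7A library, but its medians per cluster were 18 and 42. Before the shift, mean reads per cluster were higher in the ZC3H7A library for 9 of 9 members and for 94.3% of all genes compared. By distinct reads CNOT8 stood at 0.62 (0.24 to 1.02). By mean reads per cluster CNOT4 stood at -0.80 (-0.99 to -0.61), CNOT6L at -0.66 (-0.94 to -0.38) and CNOT7 at -0.39 (-0.55 to -0.24). All 3 had positive log2 ratios by the sum over clusters. CNOT2 differed the other way, at 0.87 (0.51 to 1.22) by mean reads per cluster. Of these 4 genes, CNOT4 alone had an interval by reads that excluded 0. The number of clusters was larger in the ZC3H7B library for 8 of 9 members and equal for CNOT2, and the number was larger there for 74.2% of all genes compared. CNOT4 had the most unequal numbers among members with over 1 cluster in each library, 43 against 9, and its log2 ratio of clusters was 1.33 (0.27 to 2.55). Covered lengths were not analysed here, and a ratio of sums also moves with how many clusters were called.

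**Figure D3:**
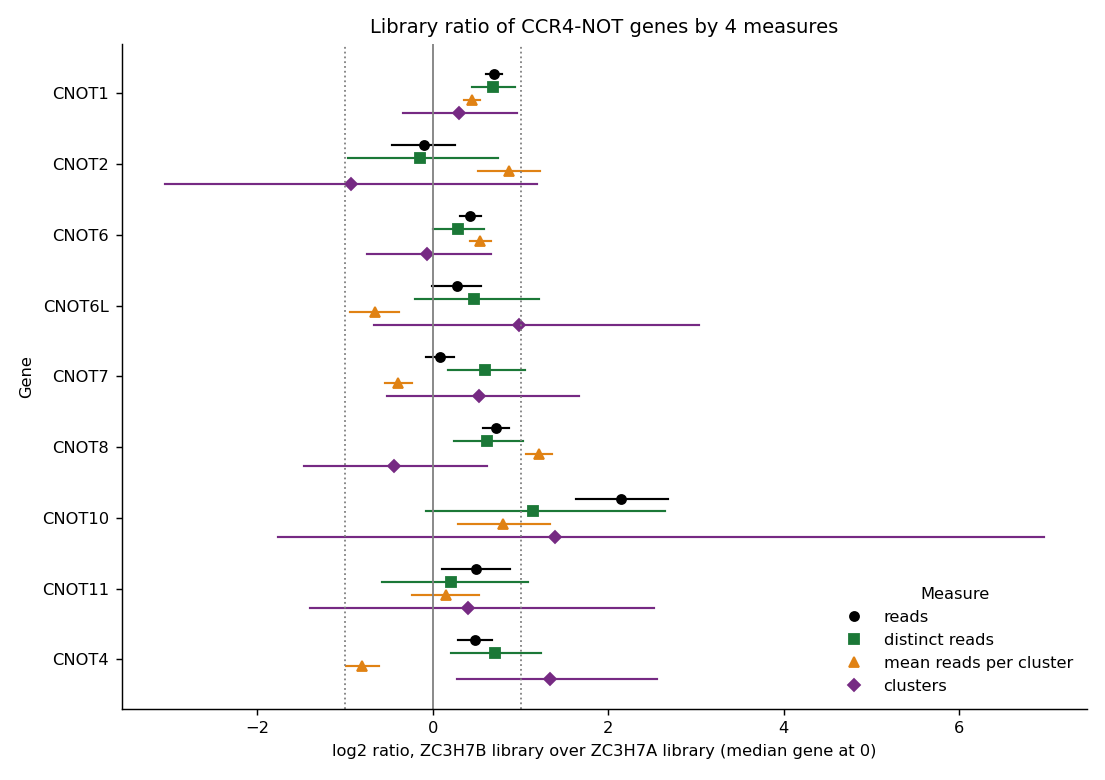
Log2 ratio of the ZC3H7B library over the ZC3H7A library for each listed gene, with exact 95% intervals for counting error, from reads (circles), distinct reads (squares), mean reads per cluster (triangles, number of clusters taken as fixed) and clusters (diamonds); dotted lines mark 2-fold. The interval of CNOT10 lies wholly beyond 2-fold by reads, at 2.14, and not by the other 3 measures, that of CNOT8 does so by mean reads per cluster, at 1.21, and CNOT4 lies at 0.48 by reads but at -0.80 by mean reads per cluster.

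Between the alternative deadenylases, the ratios of CNOT6L and CNOT6 differed by less than counting error. The log2 ratio of CNOT6L minus that of CNOT6 was -0.16 (-0.46 to 0.15) by reads, 0.18 (-0.57 to 0.98) by distinct reads and 1.03 (-0.80 to 3.21) by clusters. For CNOT8 minus CNOT7 the difference was 0.64 (0.42 to 0.86) by reads, so CNOT8 was relatively more frequent in the ZC3H7B library by that measure. By distinct reads this difference was 0.02 (-0.58 to 0.62), and by clusters -0.95 (-2.51 to 0.57). The intervals by distinct reads and by clusters held 0, and CNOT7 had 15.0 reads per distinct read in the ZC3H7A library, the highest of the members, where CNOT8 had 10.6.

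T-to-C conversion, the trace of a crosslink at 4-thiouridine, was high on all listed members. Its share of reads, averaged over the clusters of a gene, ran from 86.6% on CNOT8 to 92.7% on CNOT4 in the ZC3H7B library, and from 90.2% on CNOT7 to 100% on CNOT2 and CNOT10 in the ZC3H7A library. It was lower in the ZC3H7B library for 9 of 9 members, and for 72.9% of all genes compared. Weighted by reads, the members stood at 89.4% and 93.4% and all genes at 89.2% and 92.0%. Clusters of the members held 12.0 distinct reads on average in the ZC3H7B library and 4.61 in the ZC3H7A library, and few reads reach 100% more easily. The part of depth in this difference was not tested. The tool that called the clusters is not given, and whether it selected clusters by their conversion was not tested.

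Of 3 other subunits and partners of the complex, none had an interval beyond 2-fold. Among all genes compared, 18.2% were higher in the ZC3H7B library and 18.0% in the ZC3H7A library. A list of 3 genes is too short to set against these shares. RQCD1, the older symbol of CNOT9, a subunit that helps proteins dock on the complex, had 801 reads in 28 clusters in the ZC3H7B library, against 606 reads in 14 clusters in the ZC3H7A library, a log2 ratio of 0.90 (0.74 to 1.05). The 3' UTR held 24 of its 28 clusters in the ZC3H7B library and 11 of 14 in the ZC3H7A library. RNF219, a ubiquitin ligase that associates with CCR4-NOT, had 1348 reads against 1748, a log2 ratio of 0.12 (0.01 to 0.22). TNKS1BP1, another partner, had 32 against 81, at -0.85 (-1.49 to -0.24). Its distinct reads were 20 against 9, and by these its interval held 0, at -0.90 (-2.10 to 0.41) relative to the median gene. RNF219 had most of its clusters in coding sequence, 20 of 31 in the ZC3H7B library and 19 of 28 in the ZC3H7A library.

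Other deadenylases were mixed, with 6 of 9 listed in both tables and PAN2, PNLDC1 and CCRN4L in neither. Of the 6, 2 were higher in the ZC3H7B library (beside 18.2% of all genes), 0 in the ZC3H7A library (beside 18.0%) and 4 in neither, with a median log2 ratio of 0.15. The 2 were PAN3, a subunit of the PAN2-PAN3 deadenylase, at 2.43 (1.95 to 2.93), and ANGEL1, a relative of the CCR4-type enzymes, at 2.52 (2.11 to 2.94). ANGEL2 stood at -0.58 (-0.84 to -0.32) and PDE12, a mitochondrial deadenylase, at -1.06 (-1.24 to -0.87). PAN3 and ANGEL1 each rested on 5 distinct reads in 2 clusters in the ZC3H7A library. Both were also higher by distinct reads (beside 7.28% of all genes), and the list then had a median of -0.10. Of the poly(A) binding list, 1 of 6 was higher in the ZC3H7B library and 1 in the ZC3H7A library, beside the same 18.2% and 18.0%, with a median of 0.35. PABPC1 and PABPC4, the cytoplasmic poly(A) binding proteins, stood at 0.35 (0.23 to 0.47) and 0.68 (0.55 to 0.82), and PAIP2, an inhibitor of PABPC1, at -0.92 (-1.06 to -0.78). The gene higher in the ZC3H7B library was PAIP2B, at 3.84 (3.42 to 4.28), and that higher in the ZC3H7A library was the nuclear PABPN1, at -1.59 (-1.93 to -1.26). PAIP2B rested on 51 reads, from 6 distinct reads in 2 clusters, in the ZC3H7A library. By distinct reads PABPN1 stood at -1.25 (-1.95 to -0.52) and was not counted as higher (beside 10.1% of all genes), while PAIP2B was (beside 7.28%).

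Proteins that bring CCR4-NOT to a target lay on both sides of 0, with more above it than below. Of 19 compared, 6 were higher in the ZC3H7B library (31.6%, beside 18.2% of all genes), 0 in the ZC3H7A library (beside 18.0%) and 13 in neither, with a median log2 ratio of 0.91. SAMD4B, a relative of the Drosophila repressor Smaug, stood at 0.83 (0.74 to 0.92) and RC3H2, a relative of Roquin, at -0.76 (-0.87 to -0.65). The 6 with whole intervals beyond 2-fold were the BTG/TOB family genes BTG2 and BTG3, TNRC6B and TNRC6C, which link Argonaute to deadenylation, ZFP36L2, which binds AU-rich elements, and CPEB3, at 1.38 to 4.37. The highest, TNRC6C, had 18 reads from 4 distinct reads in the ZC3H7A library. Of the same BTG/TOB family, TOB1 was the lowest of the list at -1.11 (-1.30 to -0.93) and TOB2 stood at 1.03 (0.88 to 1.18), with intervals that reach inside 2-fold. Of the 23 listed for ZC3H7B, 4 were listed for it alone, NANOS1, ZFP36, SAMD4A and BICC1, with 10 to 100 reads, as were 21.2% of all genes listed for ZC3H7B, and BTG4, NANOS2 and NANOS3 for neither. By distinct reads 5 of the 19 were higher in the ZC3H7B library, where 7.28% of all genes were, and CPEB3 was not. The list had a median of 0.43 when mean reads per cluster were used and 0.37 when clusters were.

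Decapping and decay genes lay on both sides, with 8 of 11 compared, EDC4 listed for ZC3H7B alone and LSM14A and DCP1B for neither. EDC4 had 11 reads, from 7 distinct reads, and 21.2% of all genes listed for ZC3H7B were listed for it alone. Of the 8, 2 were higher in the ZC3H7B library (beside 18.2% of all genes), 3 in the ZC3H7A library (beside 18.0%) and 3 in neither, with a median log2 ratio of -0.34. DCP2, the decapping enzyme, had 1504 reads in 61 clusters in the ZC3H7B library, against 3303 reads in 49 clusters in the ZC3H7A library, a log2 ratio of -0.64 (-0.73 to -0.55). DCP1A, its activator, stood at 2.09 (1.90 to 2.29) and EDC3, an enhancer of decapping, at -0.04 (-0.22 to 0.15). The other gene higher in the ZC3H7B library was PATL1, at 1.37 (1.12 to 1.61), and the 3 higher in the ZC3H7A library were EIF4ENIF1, LSM14B and XRN1, the 5'-3' exonuclease, at -1.62, -2.34 and -1.87. By distinct reads 1 of 8, DCP1A, was higher in the ZC3H7B library (beside 7.28% of all genes) and 0 in the ZC3H7A library (beside 10.1%). The 3' UTR of DCP2 held 54 of its 61 clusters in the ZC3H7B library and 43 of 49 in the ZC3H7A library.

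**Figure D4:**
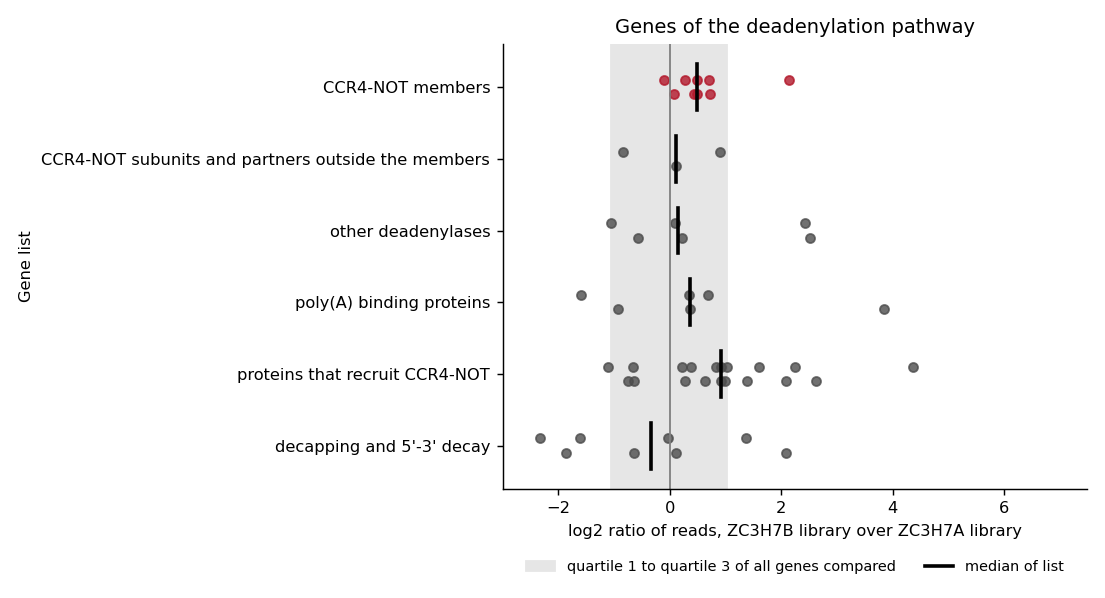
Log2 ratio of reads, ZC3H7B library over ZC3H7A library, for each gene compared (points) in the CCR4-NOT members and the other lists of the pathway, with the median of each list (black bars) and the span between the lower and upper quartiles of all 7168 genes compared (grey). Of the members, CNOT10 lies at 2.14, above the grey range of -1.05 to 1.03, and the other 8 lie within it.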

How the data were processed

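The tools named in the submitters' processing notes are Bowtie, cutadapt and STAR 2.5.2a, and the build is hg19, with no roles stated. The tool that called the clusters is not given in the sources used here. Per the file headers, the authors deposited 1 table per library with counts of clusters, reads and distinct reads per gene, and counts of clusters by region. They also deposited the median fraction of T-to-C reads over clusters, its sum, which is a score here and was divided by the number of clusters, and a conversion specificity score that was not used. The exon column was read as coding sequence, since 1606 of 1606 and 2071 of 2071 genes with 1 cluster in the ZC3H7B and ZC3H7A tables had it there exactly when classed as coding. Rows naming a repeat or small RNA class were left out (407 of 9566 and 282 of 8486, with 1.51% and 1.57% of reads).

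Intervals are exact: Poisson for reads, Clopper-Pearson for shares, and conditional binomial for ratios. With 1 library per protein no test was run. The members and lists were chosen with earlier results of these data known. Genes named are all members, the tagged proteins, the 3 genes with the most reads of each list, and, chosen after their values were seen, others that a count of called or unlisted genes refers to, with TOB1 and TOB2. One gene that this rule names is not reported here. RefSeq symbols (GRCh38.p14) matched all 10 members, and no coordinates were used. Python 3.11.15, pandas 2.3.3, numpy 2.4.6, scipy 1.17.1, matplotlib 3.10.9 and, for TMM scaling only, edgeR 4.0.16 in R 4.3.3 were used. Alternatives covered the scaling, the measure, the minimum of reads and the fold.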

Additional observations from a re-analysis of the deposited data

How the results depend on the processing

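The count of members higher in the ZC3H7B library was 1 (CNOT10) with scaling by the share of all reads, with TMM scaling, with a minimum of 100 reads or none, and with genes of 1 library kept at 0. It was 0 with distinct reads and with clusters, 6 where the interval had only to exclude no difference and 0 where it had to lie beyond 4-fold. With mean reads per cluster it was 1, then CNOT8 and not CNOT10. The count higher in the ZC3H7A library was 0 in all of these. Of all genes, 21.2% and 15.5% were higher in the ZC3H7B and ZC3H7A libraries with scaling by the share of all reads. With TMM scaling these shares were 17.3% and 18.5%. With a minimum of 100 reads they were 18.8% and 19.7%, and with none 18.1% and 18.0%. They were 24.0% and 23.5% with genes of 1 library kept at 0. The median log2 ratio of the members stayed between 0.40 and 0.64. Single members were less stable. Over the main setting and 8 alternatives, 3 members (CNOT1, CNOT10 and CNOT11) stayed positive and 6 had both signs. By clusters CNOT8 stood at -0.44 (-1.47 to 0.62), CNOT6 at -0.06 (-0.75 to 0.66) and CNOT2 at -0.93 (-3.05 to 1.19), while the others were positive. Scaling by the share of all reads moved the median of all genes to 0.16, and TMM to -0.04. Over the 7168 genes compared, 1306 and 1293 were higher in the ZC3H7B and ZC3H7A libraries by reads, and 522 and 724 by distinct reads. These counts were 443 and 333 by mean reads per cluster and 23 and 16 by clusters. By reads they were 2919 and 2858 beyond no difference and 413 and 443 beyond 4-fold. With genes of 1 library kept at 0, which gives 8710 genes, they were 2087 and 2045.

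Pooled region shares moved when single genes were left out. Without CNOT1 the coding share was 19.4% in the ZC3H7B library and 40.3% in the ZC3H7A library, and the 3' UTR share 52.8% and 37.7%. Without CNOT4, an alternative chosen after seeing the data, the intronic share in the ZC3H7B library was 10.6% (6.78 to 15.6%), beside 6.13% for all genes. The median of the members' own shares was 23.5% for coding sequence and 10.0% for introns in the ZC3H7B library, and 0% for introns in the ZC3H7A library. The median of the deposited median T-to-C fractions was 100% in the ZC3H7A library. No paired analysis was possible because each protein had 1 library. The 493 distinct reads of the members in the ZC3H7A library limit every ratio, most of all that of CNOT10 with 6.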
